A study of Mus musculus with 4 samples.

Results

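The genes described here are 9 genes with which the pancreatic beta cell senses glucose and answers it: Slc2a2, G6pc2, Abcc8, Kcnj11, Cacna1d, Trpm5, Glp1r, Slc30a8 and Ucn3. They were found on the arrays as the non-control probes whose design transcript belongs to 1 of these genes. This gave 14 probes of 41174 different probes, and all 9 genes were among the 15523 genes that were bright enough to be tested. The study compared whole pancreas of Cyp11a1 knockout and wild-type mouse embryos of strain C57BL/6JNarl at E18.5, late in gestation. Cyp11a1 encodes the mitochondrial enzyme that begins steroid hormone synthesis from cholesterol. Each of 4 arrays held 1 knockout extract labelled with a red dye (Alexa 647) and 1 wild-type extract labelled with a green dye (Alexa 555). No array had the dyes the other way round, so a gene-specific dye effect and the genotype cannot be told apart in any value below. How the Cyp11a1 allele was made, and whether an extract holds 1 pancreas or a pool, is not stated in the labels. The labels call the 4 arrays biological replicates.

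Beta cells couple insulin release to blood glucose. Glucose enters through a facilitative transporter, is phosphorylated and burned, and the rise in ATP closes a potassium channel built of a pore subunit and a sulfonylurea receptor. The membrane then depolarises, voltage-gated calcium channels open, and calcium triggers the release of granules in which insulin is packed with zinc. Cation channels and receptors for gut hormones tune this response, and the beta cell also secretes a peptide, urocortin, that acts on neighbouring delta cells. Beta cells are a small part of the fetal pancreas, and much of this machinery is still maturing before birth.

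Among these genes, the transporter Slc2a2, the phosphatase gene G6pc2 and the zinc transporter Slc30a8 were lower in knockout pancreas, by 1.21-fold to 1.29-fold, and the cation channel Trpm5 was 1.14-fold higher. The potassium channel subunits Abcc8 and Kcnj11, the calcium channel Cacna1d, the receptor Glp1r and the peptide Ucn3 did not pass the test. The count past the threshold (adjusted p under 0.05, limma with Benjamini-Hochberg adjustment over all genes) was thus 4 of 9, where 14.6% of all genes tested passed. By direction, 3 were lower against 5.11% of all genes, and 1 was higher against 9.45%. The 9 genes were chosen with earlier results of these data known, so these shares describe them and test nothing. As log2 of knockout over wild type, the median ratio was -0.047 for the 9 genes and 0.013 for all genes. With an unadjusted p under 0.05 there were 5 of 9 genes, Glp1r being the other one, against 4777 of the 15523 genes tested. The same 5 had 1 sign on all 4 arrays, against 37.6% of all genes. With each array centred on its median in place of loess, Slc2a2, G6pc2 and Slc30a8 did not pass against 0. They passed when set against the median gene, as 58.4% of all genes did, with values given further on.

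The upstream sequence of G6pc2 and Slc2a2 is shown because these were the glucose entry and glucose phosphate genes that fell. Each runs 5′ to 3′ over the 250 bases before a transcription start in RefSeq (build GRCm38.p6, both on the plus strand). The G6pc2 window is chr2:69219699-69219948 and the Slc2a2 window is chr3:28697653-28697902. Capitals mark the motifs found by a letter search on both strands.
G6pc2: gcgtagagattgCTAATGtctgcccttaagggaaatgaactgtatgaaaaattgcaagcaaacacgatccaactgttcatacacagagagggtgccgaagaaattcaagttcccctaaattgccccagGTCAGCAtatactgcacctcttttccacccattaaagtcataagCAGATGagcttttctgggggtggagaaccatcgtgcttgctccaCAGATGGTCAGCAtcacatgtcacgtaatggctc
Slc2a2: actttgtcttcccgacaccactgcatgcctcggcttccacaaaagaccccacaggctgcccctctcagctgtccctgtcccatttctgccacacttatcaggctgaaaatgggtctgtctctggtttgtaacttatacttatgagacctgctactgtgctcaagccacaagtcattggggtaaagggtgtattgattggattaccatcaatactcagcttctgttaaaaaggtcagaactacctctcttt
The search used 6 motifs: AGAACA (part of the glucocorticoid response element), CAGATG (an E box), CTAATG (a Pdx1 type homeobox site), TGCTGAC (part of a Maf site), GTTAAT (part of an Hnf1 site) and TGTTTAC (a Fox site). In G6pc2 the E box stood at -78 and -34 from the start, the homeobox site at -238, and the Maf motif, read on the opposite strand, at -122 and -28. The E box at -34 and the Maf motif at -28 lie side by side. The Slc2a2 window held none of the 6 motifs. The search also covered 50 bases past each start, where neither gene held a match. Of 32851 RefSeq promoter windows searched over the same 300 bases, 17.2% held CAGATG, 4.67% TGCTGAC, 7.36% CTAATG, 19% AGAACA, 7.1% GTTAAT and 3.65% TGTTTAC. The table held 8 windows for 6 of the 9 genes, with another G6pc2 start (69211073) whose window held none of the motifs. Elsewhere among these genes the search found only AGAACA at -16 of a Cacna1d start and CAGATG at -87 of Ucn3. A match is a string of letters and not a measured binding site.

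On every array, both channels of all 14 probes were well above background, so every value of the 9 genes is measured on both sides. The median over spots ranged from 304 to 467 for knockout and from 163 to 224 for wild type, no spot was saturated, and 78.2% to 85.1% of spots exceeded background clearly. The number of arrays limits the precision. The gene named as knocked out, Cyp11a1, was at -0.16 ± 0.070 (log2, SE, n = 4) on its brighter probe A_51_P309727, with an adjusted p of 0.179 over all probes in limma. With median centring the gene was at -0.12 (limma adjusted p = 0.147 over genes). Relative to the median of all genes, a reading added after the data were seen, it was at -0.37 (limma adjusted p = 0.0024). It passed there, as 58.4% of all genes did. The other Cyp11a1 probe was above background on 0 knockout and 1 wild-type arrays. The labels do not say which part of the gene was altered, so these probes check no label.

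**Figure D1:**
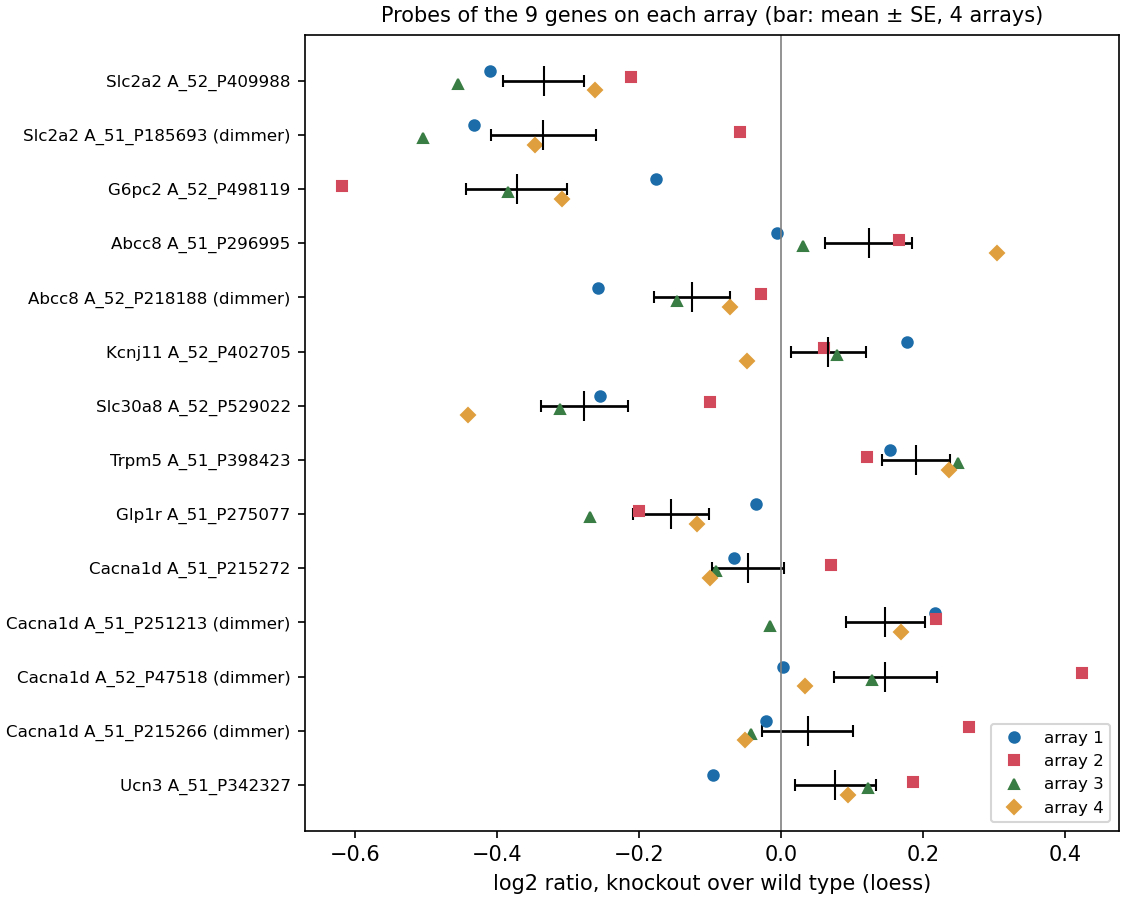
Log2 ratio of knockout over wild type (x axis, after loess) for each of the 14 probes (y axis), with 1 marker per array. The bar is the mean of 4 arrays ± the SE from limma. Both Slc2a2 probes, G6pc2 and Slc30a8 lie below 0 on every array and Trpm5 above 0 on every array, while the probes of Abcc8 and Cacna1d fall on both sides of 0.

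Slc2a2 encodes the facilitative glucose transporter of rodent beta cells, and hepatocytes also make it. On the brighter probe (A_52_P409988) the log2 ratio was -0.41, -0.21, -0.45 and -0.26 on arrays 1 to 4. All 4 arrays had less signal in knockout, with a mean of -0.33 ± 0.055 (SE, n = 4; 95% interval -0.46 to -0.21; limma adjusted p = 0.0098), or 1.26-fold lower. The normalised log2 level of this probe was 8.33, 9.79, 9.91 and 8.48 in the wild-type extracts and 7.92, 9.57, 9.46 and 8.22 in the knockout extracts. Both extracts of arrays 2 and 3 were high and both of arrays 1 and 4 low, so the genotypes overlapped and the difference was visible only within arrays. The dimmer probe (A_51_P185693) did not share that split. It gave 8.06, 7.78, 8.05 and 7.92 in wild type and 7.62, 7.72, 7.54 and 7.58 in knockout, so that every knockout extract was below every wild-type extract. Its log2 ratios were -0.43, -0.057, -0.50 and -0.35, with a mean of -0.34 ± 0.074 (SE, n = 4; limma adjusted p = 0.027 over all probes). This probe did not pass without replicate 1, 3 or 4 (adjusted p of 0.077 to 0.104) or from the scanner software's processed signals (-0.54, adjusted p = 0.097). The spread of the levels over wild-type extracts was 0.84 (SD) on the brighter and 0.13 on the dimmer probe, while the mean ratios of the probes differed by less than 1 SE. On the brighter probe the gene passed whichever replicate was left out, with adjusted p of 0.014 to 0.045 in limma over genes; adjusted over all probes, it missed without replicate 1 (adjusted p = 0.051). At the probe level, 5 of the 14 probes passed, against 10.7% of all probes tested.

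G6pc2 encodes the islet form of the glucose-6-phosphatase catalytic subunit, which takes the phosphate off phosphorylated glucose. It had 1 probe (A_52_P498119), whose level was 9.66, 10.64, 9.82 and 9.93 in wild type and 9.48, 10.02, 9.44 and 9.62 in knockout. The knockout extract was lower on each array, but the highest knockout level, on array 2, exceeded 3 of the 4 wild-type levels. The log2 ratios were -0.18, -0.62, -0.39 and -0.31, the largest difference lying on the array with the most G6pc2 signal. Their mean was -0.37 ± 0.072 (SE, n = 4; 95% interval -0.54 to -0.21; limma adjusted p = 0.016), or 1.29-fold lower. Without replicate 3 the mean was -0.37 with an adjusted p of 0.052 in limma, so the call was lost while the value stayed.

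Of 18 other genes of glucose entry and metabolism tested, 1 rose, 2 fell and 15 did not pass, with a median of -0.027. Glud1, the mitochondrial glutamate dehydrogenase that amplifies insulin release in response to amino acids, rose by 0.52 ± 0.046 (SE, n = 4, limma adjusted p = 0.0020). Slc25a22, a mitochondrial glutamate carrier, fell by 0.63 ± 0.077 (adjusted p = 0.0038). Both passed whichever replicate was left out. Hk1, a hexokinase of high glucose affinity that mature beta cells keep low, fell by 0.23 ± 0.048 (adjusted p = 0.021) with loess, but with median centring it stood at 0.33, and at 0.083 relative to the median of all genes. As the mean of its probes it gave -0.048 (adjusted p = 0.448), and it did not pass without replicate 1 or replicate 4 (adjusted p = 0.079 and 0.094). Among 10 relatives of G6pc2 and Slc2a2, namely the phosphatase subunits, their transporter and other glucose transporters, 1 passed: G6pc3, the ubiquitous phosphatase subunit, rose by 0.20 ± 0.045 (adjusted p = 0.024). It did not pass when any 1 of the 4 replicates was left out (adjusted p of 0.057 to 0.102). G6pc, the liver phosphatase subunit, gave 0.031 ± 0.057 (adjusted p = 0.755).

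Abcc8 and Kcnj11 encode the sulfonylurea receptor and the pore of the ATP-sensitive potassium channel. For Kcnj11 (A_52_P402705) the level was 10.45, 10.74, 10.85 and 11.26 in wild type and 10.63, 10.80, 10.93 and 11.21 in knockout. The genotypes overlapped, with knockout higher on 3 of 4 arrays, and the mean log2 ratio was 0.066 ± 0.051 (SE, n = 4; 95% interval -0.052 to 0.18; limma adjusted p = 0.414). The brighter Abcc8 probe (A_51_P296995) had levels of 9.35, 9.38, 9.54 and 9.24 in wild type and 9.35, 9.55, 9.57 and 9.54 in knockout. Its log2 ratios of -0.0058, 0.17, 0.031 and 0.30 gave a mean of 0.12 ± 0.061 (95% interval -0.018 to 0.26; adjusted p = 0.214). The dimmer Abcc8 probe (A_52_P218188) was lower in knockout on all 4 arrays, with -0.26, -0.028, -0.15 and -0.072 and a mean of -0.13 ± 0.054 (SE, n = 4; limma adjusted p = 0.174 over all probes). The probes of Abcc8 thus differed in sign, and as their mean the gene stood at -0.0013, so no direction is given for it. Of 12 other potassium channel genes tested, 2 rose and 10 did not pass. Kcnh6, a voltage-gated channel that helps end the beta cell action potential, rose by 0.33 ± 0.046 (adjusted p = 0.0055). Kcnh2, a related channel, rose by 0.19 ± 0.049 (adjusted p = 0.038), and did not pass when any 1 replicate was left out (adjusted p of 0.053 to 0.142).

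**Figure D2:**
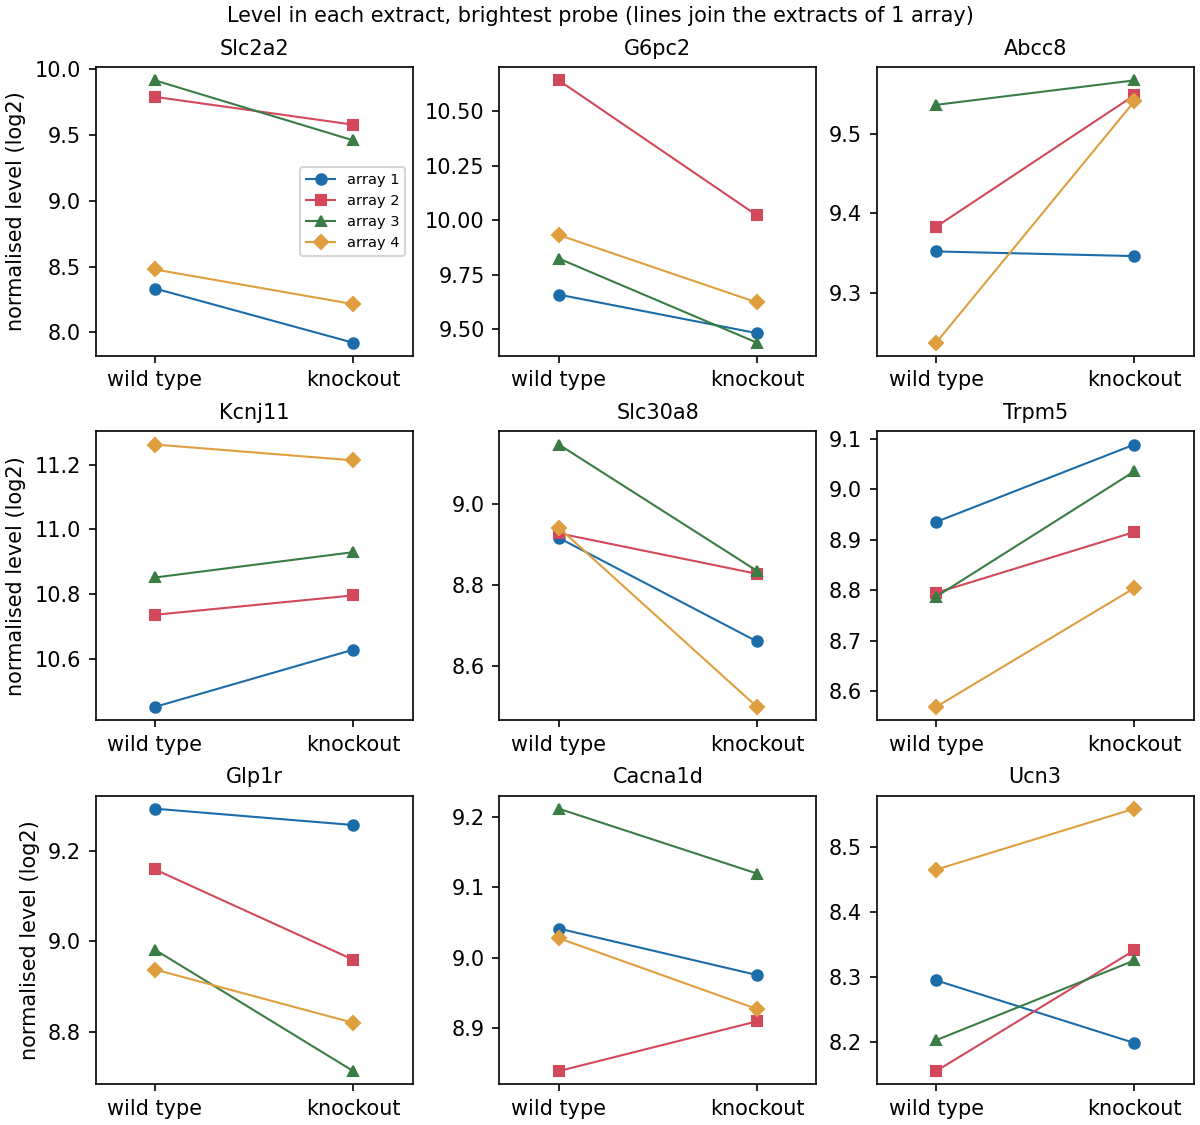
Normalised log2 level of each gene's brightest probe (y axis, a separate scale for each gene, not starting at 0) in the wild-type and the knockout extract of each array, joined by a line per array. The lines of Slc2a2, G6pc2 and Slc30a8 all fall and those of Trpm5 all rise, while Slc2a2 splits into a pair of high and a pair of low arrays in both genotypes.

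Cacna1d encodes the pore of an L-type calcium channel through which beta cells take up calcium. Its brightest probe (A_51_P215272) had levels of 9.04, 8.84, 9.21 and 9.03 in wild type and 8.98, 8.91, 9.12 and 8.93 in knockout. The genotypes overlapped, and the mean log2 ratio was -0.047 ± 0.049 (SE, n = 4; 95% interval -0.16 to 0.066; limma adjusted p = 0.555). The dimmer probes gave 0.15 ± 0.056 (A_51_P251213, designed to another transcript of the gene), 0.15 ± 0.073 (A_52_P47518) and 0.037 ± 0.064 (A_51_P215266), with adjusted p of 0.134, 0.235 and 0.748 over all probes in limma. None of the 4 probes passed in limma, 1 of them (A_51_P251213) had an unadjusted p under 0.05, and the probes differed in sign. Of 22 other genes of calcium channels and calcium handling tested, none rose in limma, 2 fell and 20 did not pass, with a median of -0.0038. With an unadjusted p under 0.05 there were 5, of which 1 was higher, where 4777 of all 15523 genes tested had such a p. Camk2b, a calmodulin-dependent kinase subunit, fell by 0.48 ± 0.068 (adjusted p = 0.0056). Atp2b1, a calcium pump of the plasma membrane, fell by 0.29 ± 0.053 (adjusted p = 0.013) with loess, and stood at 0.066 with median centring and at -0.18 relative to the median of all genes.

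Trpm5 encodes a calcium-activated cation channel of beta cells, which tuft cells, a chemosensory epithelial cell type, also make. Its level (A_51_P398423) was 8.94, 8.79, 8.79 and 8.57 in wild type and 9.09, 8.92, 9.04 and 8.80 in knockout. The knockout extract was higher on each array, though the genotypes overlapped across arrays. The log2 ratios of 0.15, 0.12, 0.25 and 0.24 gave a mean of 0.19 ± 0.046 (SE, n = 4; 95% interval 0.082 to 0.30; limma adjusted p = 0.034), or 1.14-fold higher. Without replicate 1, 3 or 4 the adjusted p was 0.081, 0.131 and 0.135, so this call needed all of these arrays, and the ratio stayed between 0.17 and 0.21. Of 6 tuft cell markers tested, Trpm5 included, all were above 0 and only Trpm5 passed. Their summed log2 ratio was 0.13, 0.023, 0.12 and 0.11 on arrays 1 to 4, and the part of tuft cells in the Trpm5 value was not tested. Among 10 other sodium and cation channel genes, 1 rose and 9 did not pass. This was Trpm4, the closest relative of Trpm5, at 0.20 ± 0.048 (limma adjusted p = 0.031), which passed without replicate 1 and not without replicate 2, 3 or 4 (adjusted p of 0.049 to 0.127 over the 4).

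Glp1r encodes the receptor for the incretin hormone glucagon-like peptide 1, which raises cAMP in the beta cell. Its level (A_51_P275077) was 9.29, 9.16, 8.98 and 8.94 in wild type and 9.26, 8.96, 8.71 and 8.82 in knockout. Knockout was lower on each array and the genotypes overlapped. The log2 ratios of -0.036, -0.20, -0.27 and -0.12 gave a mean of -0.16 ± 0.052 (SE, n = 4; 95% interval -0.28 to -0.034), with an unadjusted p of 0.019 and an adjusted p of 0.089 in limma, which missed the threshold. Of 24 other islet receptors and cAMP genes tested, 2 rose, 3 fell and 19 did not pass, with a median of -0.051. Chrm3, the muscarinic receptor through which acetylcholine acts on beta cells and also on acinar cells, fell by 0.89 ± 0.13 (adjusted p = 0.0064), with -0.86, -1.39, -0.44 and -0.85 on arrays 1 to 4. Adcy5, an adenylyl cyclase, fell by 0.19 ± 0.043 (adjusted p = 0.028) with loess and was at 0.0031 with median centring. Prkaca, the catalytic subunit of the cAMP-dependent kinase, rose by 0.20 ± 0.050 (adjusted p = 0.036), and Pde8b, a cAMP phosphodiesterase, by 0.43 ± 0.11 (adjusted p = 0.037). Neither Adcy5 nor Prkaca passed when any 1 replicate was left out, with adjusted p of 0.064 to 0.088 and of 0.057 to 0.140. Pde8b did not pass without replicate 1, 2 or 3, with a highest adjusted p of 0.109. Relative to the median of all genes it was at 0.025 (adjusted p = 0.848), and from the scanner software's processed signals it was at 0.79 (adjusted p = 0.065). The third gene that fell was Gipr, the receptor of the other incretin hormone, at -0.65 ± 0.17 (adjusted p = 0.044), with -1.02, -0.077, -1.18 and -0.33. It did not pass without replicate 1, 3 or 4 (adjusted p = 0.148, 0.119 and 0.059), nor with median centring (-0.37, adjusted p = 0.051) or the processed signals (-0.74, adjusted p = 0.086).

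Slc30a8 encodes the zinc transporter of insulin granules. Its level (A_52_P529022) was 8.92, 8.93, 9.15 and 8.94 in wild type and 8.66, 8.83, 8.84 and 8.50 in knockout. Every knockout extract was below every wild-type extract. The log2 ratios of -0.26, -0.100, -0.31 and -0.44 gave a mean of -0.28 ± 0.061 (SE, n = 4; 95% interval -0.42 to -0.14; limma adjusted p = 0.025), or 1.21-fold lower. Without replicate 1, 3 or 4 the adjusted p was 0.074, 0.083 and 0.094, with means from -0.28 to -0.22, so the call needed these arrays. None of 20 genes of insulin granule exocytosis tested passed in limma. An unadjusted p under 0.05 was found for 3 of them, and for 4777 of all 15523 genes tested. With median centring 11 of the 20 passed, where 76.8% of all genes did. Rab27a (0.18, adjusted p = 0.051) and Rab3d (0.19, adjusted p = 0.054), small GTPases of secretory granules, had the smallest p-values, and acinar cells are also known to make Rab3d.

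Ucn3 encodes a urocortin, a peptide of the corticotropin-releasing factor family that marks mature mouse beta cells. Its level (A_51_P342327) was 8.30, 8.16, 8.20 and 8.47 in wild type and 8.20, 8.34, 8.33 and 8.56 in knockout. The genotypes overlapped, with knockout higher on 3 of 4 arrays, and the mean log2 ratio was 0.076 ± 0.056 (SE, n = 4; 95% interval -0.055 to 0.21; limma adjusted p = 0.398). Beside this family, Crhbp, which encodes a binding protein and not a peptide of the family, fell by 0.62 ± 0.10 (limma adjusted p = 0.0091). Its log2 ratios were -0.43, -1.02, -0.38 and -0.66 on the arrays, and whether its product binds Ucn3 was not measured. With median centring Crhbp was at -0.24 and did not pass (limma adjusted p = 0.051). Relative to the median of all genes it was at -0.49 and passed, as 58.4% of all genes did. Ucn, another urocortin, gave 0.12 (adjusted p = 0.109) and did not pass.

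The insulin genes, the main products of beta cells, did not pass the test with loess, and rose with median centring. With loess Ins1 gave -0.11, 0.11, -0.011 and 0.062 on arrays 1 to 4 and Ins2 gave -0.13, -0.030, -0.059 and 0.12. Of 5 beta cell markers tested none passed in limma and 0 had an unadjusted p under 0.05, with Nkx6-1 at 0.084, Pdx1 at 0.045, Mafa at 0.033, Ins1 at 0.013 and Ins2 at -0.025, and with adjusted p of 0.262 to 0.897. Nkx6-1, Pdx1 and Mafa are transcription factors of beta cells. With median centring all 5 passed, as 76.8% of all genes did. Ins1 was at 0.62, Ins2 at 0.57, Nkx6-1 at 0.38, Pdx1 at 0.37 and Mafa at 0.34. Relative to the median of all genes Ins1 (0.37, limma adjusted p = 0.00059) and Ins2 (0.32, adjusted p = 0.0012) passed, and the other 3 did not. On that scale 58.4% of all genes passed. In whole pancreas, fewer cells of a type and less RNA per cell cannot be told apart.

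Set against the mean of Ins1 and Ins2 on the same array, Slc2a2 was at -0.29, -0.25, -0.42 and -0.35, with a mean difference of log2 ratios of -0.33 ± 0.073 (SD, n = 4). G6pc2 was at -0.057, -0.66, -0.35 and -0.40 (-0.37 ± 0.25), and Slc30a8 at -0.14, -0.14, -0.28 and -0.53 (-0.27 ± 0.19). These 3 genes were below the insulin genes on 4 of 4 arrays. Trpm5 (0.20 ± 0.099), Abcc8 (0.13 ± 0.062, on its brighter probe) and Ucn3 (0.082 ± 0.080) were above them on 4 of 4 arrays. Kcnj11 (0.072 ± 0.18), Cacna1d (-0.041 ± 0.11) and Glp1r (-0.15 ± 0.16) lay on both sides. For each of the 6 genes with 1 sign the exact two-sided sign-flip permutation test gave p = 0.13, the smallest that 4 arrays can give, and 0.1875 after Benjamini-Hochberg adjustment over the 9 genes, so this comparison cannot reach 0.05. With median centring in place of loess, the very bright insulin genes moved up by more than the 9 genes, and the median difference over them went from -0.041 to -0.43. All 9 genes then lay below the insulin genes on 4 of 4 arrays. Trpm5 (-0.20 ± 0.070), Abcc8 (-0.18 ± 0.099) and Ucn3 (-0.43 ± 0.098) thus turned sign, while Slc2a2 (-0.73 ± 0.17), Slc30a8 (-0.67 ± 0.17) and G6pc2 (-0.64 ± 0.17) lay further below.

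**Figure D3:**
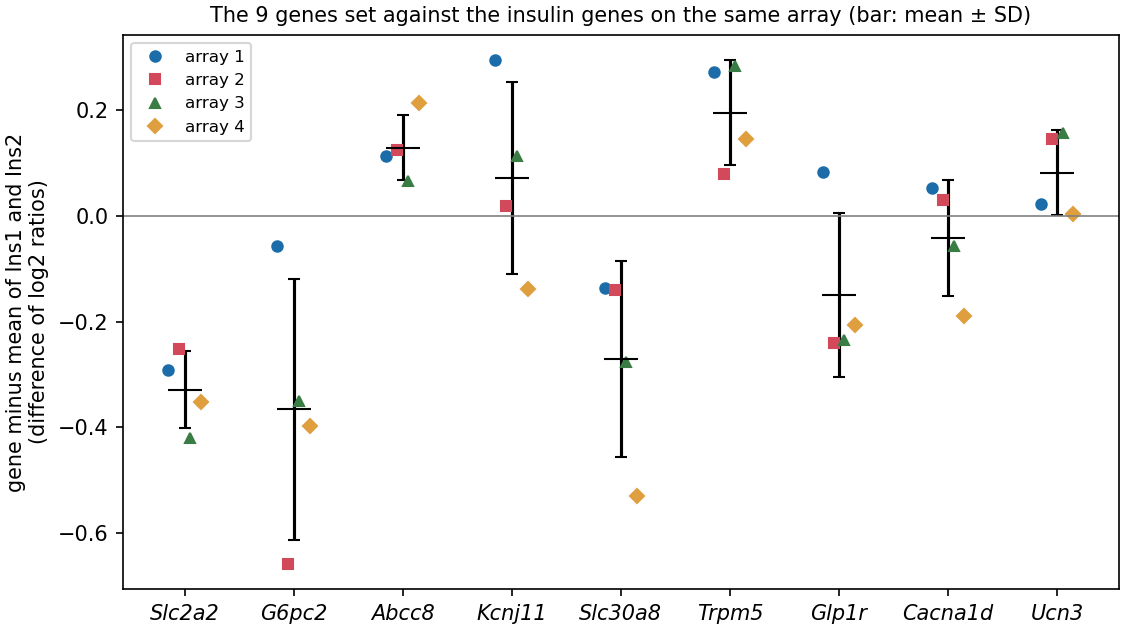
Difference between the log2 ratio of each gene and the mean log2 ratio of Ins1 and Ins2 on the same array (y axis), with 1 marker per array and the mean ± SD of 4 arrays as a bar. Slc2a2, G6pc2 and Slc30a8 lie below 0 on all 4 arrays, and Trpm5, Abcc8 and Ucn3 above it, all with loess; with median centring all 9 lie below 0.

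Of 13 markers that endocrine cells of several types share, none rose in limma, 2 fell and 11 did not pass. An unadjusted p under 0.05 was found for 4 of the 13, of which 1 was higher, and for 4777 of all 15523 genes tested. The genes that fell were the granins Chga (-0.24, limma adjusted p = 0.036) and Chgb (-0.31, adjusted p = 0.043), proteins of hormone granules, with loess; with median centring they stood at 0.23 and 0.045, and at -0.016 and -0.20 relative to the median of all genes. Chga did not pass without replicate 1, 3 or 4 (adjusted p of 0.071 to 0.122) and Chgb not without replicate 1, 2 or 3 (adjusted p of 0.095 to 0.136), nor Chgb from the processed signals (adjusted p = 0.075). The summed log2 ratio of the 13 markers was -0.24, 0.099, -0.22 and -0.063, with sums of 29520.1 to 36861 in wild type and 28253 to 32969 in knockout. Slc2a2 was lowest on arrays 1 and 3 and highest on array 2, as the sum was. This order is not particular to them, as Slc25a22 had it too. Across all genes, arrays 1 and 3 (Pearson's r of 0.60) and arrays 2 and 4 (0.59) were the most alike. Against the mean of these 13 markers, a comparison added after the data were seen, Slc2a2 was at -0.25 ± 0.065 (SD, n = 4) and below them on 4 of 4 arrays. Slc30a8 was at -0.19 ± 0.18, also below on 4 of 4, and G6pc2 at -0.29 ± 0.33, below on 3 of 4. The part of these markers in the lower values was not tested beyond this. None of 5 alpha cell markers and none of 4 markers of delta, PP and epsilon cells passed in limma, with 0 and 1 at an unadjusted p under 0.05. Of 4 endocrine progenitor markers, all above 0 with a median of 0.12, Neurog3, the transcription factor that commits progenitors to the endocrine fate, rose. Its log2 ratios of 0.091, 0.47, 0.30 and 0.46 gave a mean of 0.33 ± 0.069 (SE, n = 4; limma adjusted p = 0.021), which did not pass without replicate 2, 3 or 4 (adjusted p of 0.059 to 0.080). The summed log2 ratio of the 4 progenitor markers was 0.091, 0.23, 0.085 and 0.20. Nkx2-2 and Insm1 among them also belong to the 13 shared endocrine markers, so these lists are not separate. Of 5 endothelial markers, all below 0 with a median of -0.11, the receptor gene Tek fell by 0.29 ± 0.065 (SE, n = 4; limma adjusted p = 0.026) and did not pass without replicate 3 or 4 (adjusted p = 0.081 and 0.089). The summed endothelial log2 ratio was -0.14, -0.083, -0.24 and -0.15. Progenitor sums were thus higher and endothelial sums lower in knockout on all 4 arrays, as Slc2a2, G6pc2 and Slc30a8 were lower, and the part of either in those values was not tested.

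Some hepatocyte transcripts varied strongly between extracts and others little. With 1 replicate left out in turn, the mean log2 ratio ranged from 0.21 to 2.76 for Alb and from 0.40 to 2.74 for Ahsg. It ranged from -0.12 to -0.051 for Apob, from 0.12 to 0.16 for Apoa2 and from -0.065 to 0.012 for Ttr. Of 12 tested none passed in limma, 2 had an unadjusted p under 0.05, and Alb, the main plasma protein of liver, gave 4.13, 2.70, -3.52 and 1.44 on arrays 1 to 4. The summed log2 ratio of the hepatocyte markers was 1.45, 0.036, -0.21 and 0.037, with sums of 8213 to 41501 in wild type and 22509 to 42579 in knockout. The sum adds signals and so follows the brightest markers. It moved far less than Alb on all 4 arrays, and does not show that hepatocyte RNA was alike in the extracts of any array. Slc2a2, which hepatocytes also make, was lower in knockout on the 3 arrays where Alb was higher and on the array where it was lower. The part of hepatocyte RNA in the Slc2a2 ratio was not tested. Acinar markers moved in both directions, 4 of 12 higher (among them Cpa1, Cel and Rbpjl) and 3 lower (Gp2, Cela1 and Pnlip), with a summed log2 ratio of -0.089, 0.35, 0.32 and 0.52. The acinar sum was higher in knockout on arrays 2 to 4 and slightly lower on array 1, whereas Slc2a2, G6pc2 and Slc30a8 were lower on all 4. The part of the acinar share in these ratios was not tested.

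**Figure D4:**
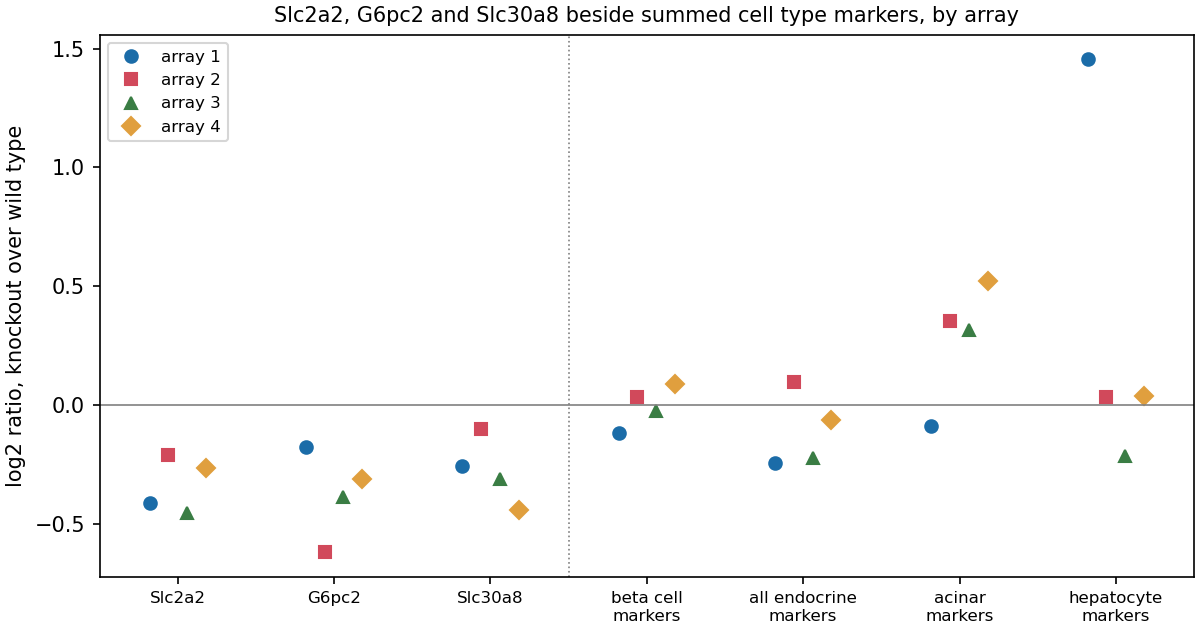
Log2 ratio of knockout over wild type (y axis) on each array for Slc2a2, G6pc2 and Slc30a8, left of the dotted line, and for the summed signal of beta cell, shared endocrine, acinar and hepatocyte markers, right of it. The 3 genes lie below 0 on all arrays, the beta cell sum lies within -0.12 to 0.087, and the hepatocyte sum reaches 1.45 on array 1. Each sum follows its brightest markers, so the hepatocyte sum does not show how far Alb moved on the other arrays.

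The values depended on the normalisation. With each array centred on its median in place of loess, the median of all genes was 0.26, and 11921 genes passed, with 79.4% higher in knockout compared to 64.9% under loess. Against 0, Slc2a2 then stood at -0.13 (limma adjusted p = 0.127), G6pc2 at -0.046 (0.552 adjusted) and Slc30a8 at -0.072 (0.350 adjusted). None of the 3 passed on that scale, while Kcnj11 (0.47), Abcc8 (0.41), Trpm5 (0.40), Cacna1d (0.18) and Ucn3 (0.17) did. Relative to the median of all genes, a reading added after the data were seen, Slc2a2 (-0.38), Slc30a8 (-0.32), G6pc2 (-0.30) and Trpm5 (0.15) passed again, and Kcnj11 (0.22) and Glp1r (-0.18) passed with them. These 6 of 9 stand against 58.4% of all genes on that scale, and the 5 of 9 that passed against 0 stand against 76.8%, so neither count sets the 9 genes apart. Among the other pathway genes, median centring moved Glud1 to 1.02, Slc25a22 to -0.30, Camk2b to -0.22 and Kcnh6 to 0.55, all still past the threshold. The scanner software's processed signals with loess ended the calls of G6pc3 (adjusted p = 0.057), Trpm4 (0.055 adjusted) and Prkaca (0.085 adjusted).

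**Figure D5:**
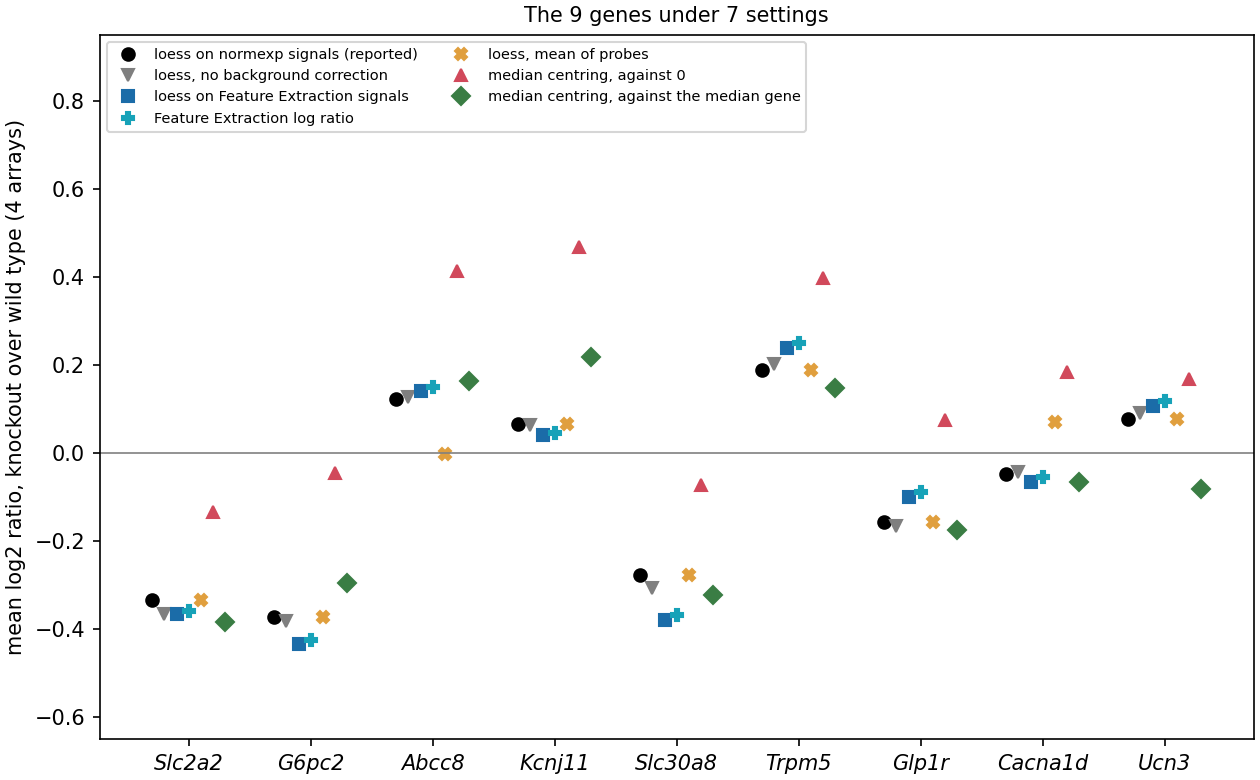
Mean log2 ratio of the 9 genes (y axis, 4 arrays) under 7 settings of background correction, normalisation and probe choice, each with its own marker. Slc2a2, G6pc2 and Slc30a8 stay below 0 under all 7 and Trpm5 above 0, while Abcc8, Glp1r, Cacna1d and Ucn3 change sign with at least 1 setting.

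The 9 genes did not share 1 pattern over the extracts. Each channel was centred on its own mean, which takes out the genotype difference. Pearson's r over the 8 extracts was then 0.75 between Slc2a2 and Abcc8, 0.74 between Slc2a2 and Slc30a8 and 0.50 between Slc2a2 and G6pc2. It was -0.026 between G6pc2 and Slc30a8, 0.75 between Kcnj11 and Ucn3 and -0.92 between Kcnj11 and Trpm5. Of 8 hormone, granule and liver genes set against Slc2a2, the prohormone convertase gene Pcsk2 had the highest r (0.91). Chga was at 0.71, Chgb at 0.65, Gcg at 0.46, Ahsg at -0.10, Alb at -0.11, Ins2 at -0.28 and Ins1 at -0.37. All r values of Slc2a2 rest on its brighter probe, whose levels split by array, a split that the dimmer probe did not share. The genes most like each one, among 14923 genes, were Add3, Sf3a1 and Tmco1 for Slc2a2 (r of 0.993 to 0.995) and Exoc2, Pafah2 and Psg29 for G6pc2 (0.984 to 0.994). For Slc30a8 they were Mkx, Fam174a and Mrpl39 (0.975 to 0.979), and for Trpm5 Hspb7, Cyp27b1 and Igfbp2 (0.988 to 0.994). The first in order were Polrmt for Abcc8 (0.992), Tpm2 for Kcnj11 (0.993), Omg for Glp1r (0.990), Snrpa for Cacna1d (0.985) and Proca1 for Ucn3 (0.987). These are descriptions of 8 extracts that share 4 arrays, and the highest of so many values is high by selection.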

How the data were processed

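Total RNA of 8 pancreas extracts was compared on 4 arrays with 2 colours, each holding 43379 spots. The submitters' processing notes name Agilent Feature Extraction 10.5.1.1 as the scanner software. The deposited files hold median and background signals as linear intensity, processed signals (also intensity) after the scanner software's background and dye correction, and a log10 ratio of red over green, per the file headers.

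From these, median signals were corrected with normexp (offset 50) and loess within each array in limma 3.58.1 (R 4.3.3), with control and non-uniform spots at weight 0 and the latter then left out. Log2 ratios were computed from the deposited intensity values. Of the different probes, 61.0% were named by matching the array design's RefSeq transcripts to a GRCm38.p6 gene table. A probe was tested if well above background on at least 3 arrays in either channel, and a gene was represented by its brightest probe. Ratios were fitted against 0 with lmFit and eBayes, so the pairing of extracts lies inside each array, and p-values (two-sided) were Benjamini-Hochberg adjusted, with 0.05 as the threshold. The scripts were tested on simulated data. All arrays lay on 1 slide with 1 scan, so no slide or scan could be compared. The extract codes in the titles are not explained, and extracts were treated as independent. In limma the SE and p-value of a gene combine its own spread between these 4 arrays with a variance shared over all genes. The ratios of the arrays correlated unequally across genes. Pearson's r was 0.60 between arrays 1 and 3 and 0.59 between arrays 2 and 4, and 0.31 to 0.43 between the other pairs. The cause of this pairing was not tested.

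The genes and the 8 pathway and 15 marker lists beside them were chosen with earlier results of these data known. Named genes were all 9 genes, up to 4 genes of each pathway list past the threshold by smallest p (otherwise the 2 smallest p), all beta cell and hepatocyte markers, the 3 genes most alike, and Cyp11a1. Gipr, Chga, Chgb, Neurog3, Tek and the acinar genes were named after their values were seen, and G6pc, which did not pass, likewise. Some list members are not reported here. Alternatives were no background correction, the processed signals with loess, the deposited log10 ratio, median centring, scaling between arrays, other filters and probe rules, outlier spots left out, separate channels that ignore the array, other variance models, and each replicate left out.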

Additional observations from a re-analysis of the deposited data

Results flagged for a closer look

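Of 87 groups of 4 values, 5 held a value far from the other 3 by Dixon's test at the 95% level, and chance gives about 1 such group in 20. The dimmest Cacna1d probe (A_51_P215266) had a log2 ratio of 0.26 on array 2, against values from -0.051 to -0.022 on the other arrays. Afp, the fetal plasma protein of liver, had a log2 ratio of -2.02 on array 3 and lay between 2.12 and 2.40 on the others. The difference between Glp1r and the insulin genes was 0.083 on array 1, where Glp1r had its ratio nearest to 0, and -0.24 to -0.21 on the others. The wild-type level of Slc30a8 was 9.15 on array 3, above 8.92 to 8.94 on the others, and the knockout level of Slc30a8 on that array was still below all wild-type levels. The knockout level of Abcc8 was 9.35 on array 1, below 9.54 to 9.57 on the others.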

How the results depend on the processing

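The number of arrays and the absence of a dye swap limit these results, and the normalisation moved the counts. In the main analysis 4 of the 9 genes and 2260 genes in all passed. With median centring in place of loess, 5 of the 9 and 11921 genes passed, the median of the 9 genes was 0.17, and their median difference from the insulin genes was -0.43. Signs then turned for Glp1r (0.075, also as probe A_51_P275077), Cacna1d (0.18, also as probe A_51_P215272), its probe A_51_P215266 (-0.33), Adcy5 (0.0031), Apob (0.46), Atp2b1 (0.066), Chga (0.23), Chgb (0.045), Hk1 (0.33), Ins2 (0.57), Tat (0.29) and Ttr (0.30). Relative to the median of all genes, added after the data were seen, 6 of the 9 and 9064 genes passed, 46.9% of these higher. Signs turned there for Ucn3 (-0.082, also as probe A_51_P342327), Apob (0.21), Hk1 (0.083), Ins2 (0.32), Tat (0.043), Ttr (0.050) and the Cacna1d probes A_51_P215266 (-0.58), A_51_P251213 (-0.048) and A_52_P47518 (-0.11). As the mean of a gene's probes Abcc8 gave -0.0013, Cacna1d 0.071 and Apob 0.059. Apob gave 0.017 with the strict filter, and Ttr 0.0051 with array weights. Single channels without the array as a replicate block gave 0 of the 9 genes and 100 genes in all, so the calls rest on the pairing of extracts within arrays. Leaving out 1 replicate gave 1 to 4 of the 9 genes and 980 to 1624 genes in all, the lowest without replicate 3. The ratio ranged over 0 among these for Ins1 (-0.020 to 0.054), Ins2 (-0.072 to 0.0090), Pdx1 (-0.027 to 0.15), Tdo2 (-0.080 to 0.013), Trf (-0.18 to 0.42), Ttr (-0.065 to 0.012) and probe A_51_P215266 (-0.039 to 0.067). Under no background correction, both scanner-software settings, scaling, the 2 filters, outlier spots left out, each probe on its own, and both variance models, 4 of the 9 passed. The cause of these changes was not tested.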
